A study of Cucumis melo with 12 samples.

Results

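In melon (Cucumis melo) leaves, 58 genes had transcript levels that increased over 12 h at 4 °C in the variety 162 while rising less or not at all in the variety 13-5A. They were chosen by the measured levels themselves, so the pattern that defines them is a description and not a finding. Levels are FPKM, that is, fragment numbers corrected for gene length and for library size. Changes are differences of mean log2(FPKM + 1) between 12 h and 0 h. A gene was a member when its mean over the 12 libraries was at least 3 FPKM, its change in 162 was at least 1 (a 2-fold rise on that scale), its change in 13-5A lay between -0.6 and 1, and the first change exceeded the second by at least 1. Of the 21691 genes in the table, 13186 reached the minimum level, and 58 of these (0.440%) met the other limits.

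The series compared 162, which the labels call tolerant of chilling, with 13-5A, which they call sensitive. Leaves of each variety were sampled at 0 h and at 12 h, with 3 libraries in each of the 4 groups. Since 4 °C is named for the 0 h samples too, those are read as the start of exposure. No group was sampled at 12 h without chilling, so the effect of cold and that of elapsed time cannot be told apart. The labels give neither plant age nor growth conditions, and they do not say that replicates are separate plants, so p-values measure spread among these samples only, and part of it may be technical.

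Melon is a warm-season crop that is injured by cold well above freezing. In plant leaves, chilling stiffens membranes, slows the enzymes of photosynthesis more than the capture of light, and sets off calcium signals. In Arabidopsis, transcription factors of the CBF family then switch on protective genes such as dehydrins and enzymes that make soluble sugars. The deposited identifiers come without names, and 0 of them matched the name table used here, so no member can be placed in these pathways. The labelled tissue could not be checked against leaf marker genes for the same reason.

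Most genes that increased in 162 also increased in 13-5A, and the 58 genes are a small remainder. Of the 13186 genes, 1341 had a change of at least 1 in 162. In 13-5A, 1067 of these also changed by at least 1, and 5 changed by -0.6 or less. Another 211 lay between those limits in 13-5A but differed by less than 1 between the varieties, which left the 58 members, 4.33% of the 1341. The same rule with the varieties exchanged gave 232 genes, 12.5% of the 1852 genes with a change of at least 1 in 13-5A. This imbalance depended on scaling: with median-ratio scaling, which sets the typical gene to the same level in every library, 94 genes met the rule and 140 the exchanged rule. All 58 members were among the 94. The median difference between the changes, 162 minus 13-5A, was -0.17 over the 13186 genes as deposited and 0.01 with median-ratio scaling.

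**Figure D1:**
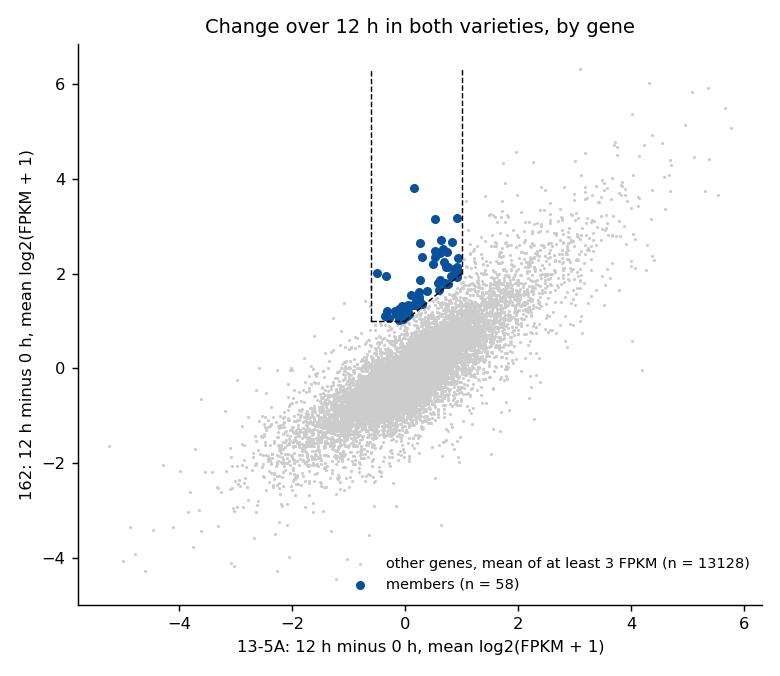
Change over 12 h at 4 °C in 13-5A (horizontal axis) and in 162 (vertical axis), as differences of mean log2(FPKM + 1) over 3 libraries per group; each point is 1 of 13186 genes. The 58 members (blue) fill the corner set by the rule (dashed lines), and many lie close to its slanting edge, where the difference between the changes is 1.

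The 58 genes together took up a small share of the transcripts, which was highest in 162 at 12 h. In 162 at 0 h they held 0.199%, 0.260% and 0.254% of all FPKM in the 3 libraries, and at 12 h 0.799%, 0.805% and 0.905%. In 13-5A the shares were 0.308%, 0.285% and 0.365% at 0 h and 0.440%, 0.468% and 0.378% at 12 h. The libraries of 162 at 12 h stood above all others, and those of 162 at 0 h below all others. Group means were 0.238% ± 0.0334 and 0.836% ± 0.0596 in 162 and 0.320% ± 0.0413 and 0.429% ± 0.0459 in 13-5A (SD, n = 3). In leaf RNA of this kind, more cells with a transcript and more transcript per cell cannot be told apart.

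The mean log2(FPKM + 1) level of the 58 genes in 162 was 3.57 ± 0.12 at 0 h and 5.39 ± 0.10 at 12 h (SD, n = 3). For 13-5A it was 3.91 ± 0.12 and then 4.24 ± 0.17. Over all 13186 genes the corresponding levels were 4.27 ± 0.05 and 4.24 ± 0.02 in 162, and 4.00 ± 0.04 and 4.15 ± 0.04 in 13-5A. In 162 the members thus began below the average gene and ended above it, whereas in 13-5A they lay just below it at 0 h and just above it at 12 h.

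**Figure D2:**
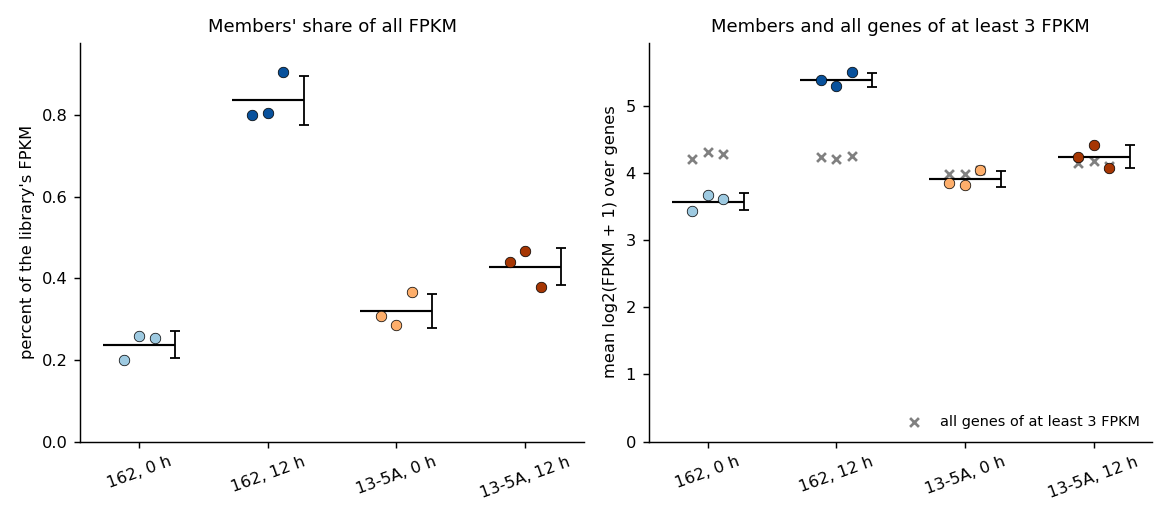
Left, percent of each library's FPKM held by the 58 members; right, their mean log2(FPKM + 1), with the mean over all 13186 genes as grey crosses. Points are libraries, lines are group means and bars are SD (n = 3); the 162 libraries at 12 h lie at 0.799% to 0.905%, and the other 9 at 0.199% to 0.468%.

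The change in 162 ran from 1.01 to 3.80 with a median of 1.78, and it was at least 2 in 21 of the 58 genes. The change in 13-5A ran from -0.51 to 0.94 with a median of 0.26. It was above 0 in 45 genes and below 0 in 13, and at least 0.5 in 24. Over the 13186 genes the median changes were -0.09 in 162 and 0.11 in 13-5A. The difference between the changes had a median of 1.30 and was at least 2 in 8 members and under 1.2 in 16. The list therefore holds genes that hardly moved in 13-5A beside genes that moved there in the same direction, but less.

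The 12 libraries were fitted with limma over the 15592 genes whose mean reached 1 FPKM. Called here means an adjusted p (Benjamini-Hochberg, over all those genes) below 0.05 together with a difference of 1 or more in size. The rule used these contrasts, so the counts describe the members and test nothing. In 162, 57 of the 58 genes were called higher at 12 h, against 9.24% of all genes. The exception, MELO3C017682.2, had 1.31, 2.97 and 3.02 FPKM at 0 h and 10.8, 4.25 and 4.29 FPKM at 12 h, where replicate 1 stood apart. In 13-5A, limma called 0 members higher, against 12.6% of all genes. The rule keeps this change below 1 and a call needs at least 1, so the 0 was fixed in advance. Without the limit on size, an adjusted p below 0.05 with a change above 0 was reached by 12 members, against 28% of all genes. An unadjusted p below 0.05 was reached by 16, against 31.4%. The 13-5A count became 3 without replicate 3 of 13-5A at 0 h, where 13.2% of all genes were called higher. It was 2 without replicate 2 at 0 h (12.4% of all genes) and 2 without replicate 3 at 12 h (13.5%). A pseudocount of 0.1 and limma voom on recovered reads each gave 2, against 14.98% and 14.8% of all genes.

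The difference between the changes was called positive in 28 of the 58 genes, against 1.04% of all genes. For the other 30 the difference met the rule without passing the test. Among the members and among all genes, fewer were called when some libraries of 13-5A were left out. The members called were 13 without replicate 1 at 0 h (0.462% of all genes), 17 without replicate 3 at 0 h (0.609%) and 18 without replicate 1 at 12 h (0.564%), and all of those genes were among the 28. With median-ratio scaling 37 members were called, against 1.71% of all genes. In individual libraries, 57 members had all 3 libraries of 162 at 12 h above all 3 at 0 h, which held for 23.6% of the 13186 genes. In 13-5A, 16 members showed such a separation upward, against 37.8%.

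What the rule does not fix is where the varieties stood at each time, and here the 58 genes fell into 4 kinds. Percentages in brackets are the shares of each kind among all genes that reached the minimum level. In 10 genes 162 began lower than 13-5A by at least 1 on the log2 scale and ended within 1 of it (1.73%). In 20 genes the varieties were within 1 of each other at both times (81.1%). In 23 genes they were within 1 at 0 h, and 162 was higher by at least 1 at 12 h (1.62%). In 5 genes 162 was higher by at least 1 at both times (3.68%). In 0 genes was 162 lower by at least 1 at 12 h. The difference at 12 h is the difference at 0 h plus at least 1, so both differences are tied to the rule. Choosing by the rule favours low differences at 0 h and high ones at 12 h. The counts and limma calls given for these differences describe the members and test nothing.

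At 0 h, 40 of the 58 genes were lower in 162 than in 13-5A, with a median difference of -0.40, whereas over the 13186 genes the median was 0.24. At 12 h, 55 of the 58 were higher in 162, with a median of 0.87 against 0.07. The 0 h difference depended on scaling, as the median of all genes did. With median-ratio scaling it was -0.68 over the members and -0.05 over all genes, 47 members were lower in 162, and 19 in place of 10 were lower by at least 1. Both contrasts are tied to the rule, so the counts that follow are descriptions. By limma, 10 members were called lower in 162 at 0 h, against 3.08% of all genes, and 4 were called higher, against 11.7%. At 12 h, 25 were called higher in 162, against 4.97%. In the libraries, 21 members had all of 162 below all of 13-5A at 0 h (14.6% of the 13186 genes), and 8 had all of it above (38.8%). At 12 h, 43 had all of 162 above all of 13-5A (25.2%). In 39 members the 3 libraries of 162 at 12 h were above each of the 9 other libraries, which held for 8.19% of the 13186 genes.

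**Figure D3:**
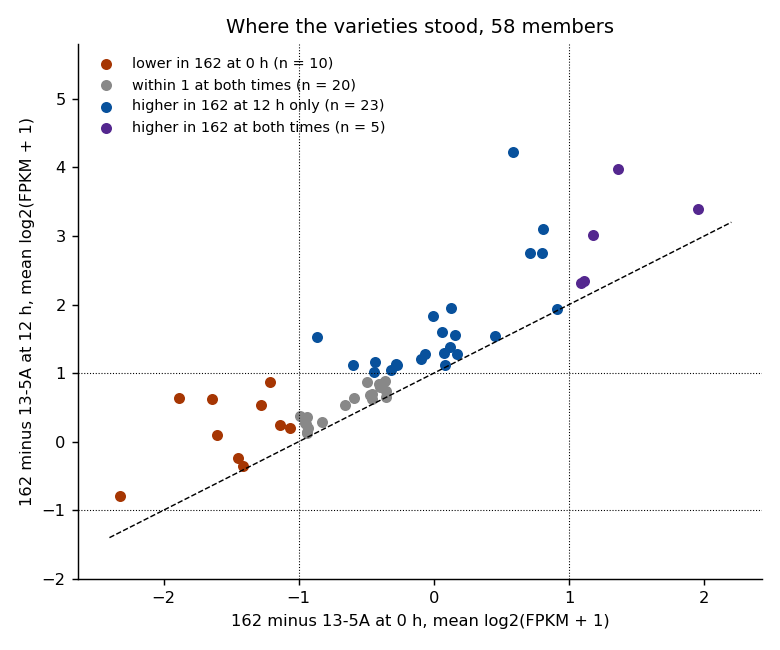
Difference between the varieties (162 minus 13-5A, mean log2(FPKM + 1)) at 0 h (horizontal axis) and at 12 h (vertical axis) for the 58 members. Dotted lines mark -1 and 1, and the dashed line marks a 12 h difference 1 above the 0 h difference, below which the rule lets no gene lie; 10 genes lie to the left of -1 and 5 to the right of 1.

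The genes named next were taken by fixed criteria of size, 2 for each, and their roles are not annotated in the sources used here. Among the 10 genes that began lower in 162, the median member stood at 9.06 FPKM in 162 and 25.9 FPKM in 13-5A at 0 h, and at 54.1 and 43.9 FPKM at 12 h. MELO3C024886.2 had one of the largest changes in 162 and a small spread. It had 5.59, 6.85 and 5.94 FPKM in 162 at 0 h and 58.1, 62.6 and 70.1 FPKM at 12 h. In 13-5A it had 19.7, 25.3 and 19.0 FPKM at 0 h and 43.2, 42.4 and 37.0 FPKM at 12 h. All 4 groups were free of overlap: 162 was the lowest at 0 h and the highest at 12 h, and 13-5A lay between with a smaller change. The changes were 3.18 (SE 0.14) in 162 and 0.92 (SE 0.14) in 13-5A, the second just under the limit of the rule.

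MELO3C006616.2 ended at overlapping levels in the varieties. It had 3.52, 2.81 and 5.49 FPKM in 162 at 0 h and 22.8, 21.6 and 32.5 FPKM at 12 h. Its 13-5A libraries held 13.9, 10.4 and 17.5 FPKM at 0 h and 23.9, 25.5 and 21.1 FPKM at 12 h. The varieties did not overlap at 0 h and overlapped at 12 h, where they differed by 0.10 (SE 0.23).

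MELO3C021156.2 had the lowest starting level relative to 13-5A of all members, -2.32 (SE 0.17). Its levels in 162 were 21.8, 16.6 and 17.7 FPKM at 0 h and 38.5, 44.9 and 50.7 FPKM at 12 h. In 13-5A they were 94.5, 96.3 and 99.6 FPKM at 0 h and 87.3, 60.4 and 87.7 FPKM at 12 h. Here 162 rose from 18.7 ± 2.71 to 44.7 ± 6.09 FPKM (SD, n = 3) and still lay below every library of 13-5A.

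In MELO3C005323.2, the member with the smallest spread within groups (SD 0.13 on the log2 scale), 162 had 77.4, 81.6 and 79.0 FPKM at 0 h and 225, 264 and 262 FPKM at 12 h. The sensitive variety had 177, 153 and 172 FPKM at 0 h and 230, 188 and 240 FPKM at 12 h. The 0 h libraries of 162 stood apart from all others, and at 12 h the varieties overlapped.

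MELO3C023110.2 hardly moved in 13-5A, by -0.06 (SE 0.26). It had 65.2, 116 and 87.4 FPKM in 162 at 0 h and 220, 194 and 245 FPKM at 12 h. In 13-5A its libraries spread over 199, 149 and 243 FPKM at 0 h and 204, 231 and 134 FPKM at 12 h. The 12 h libraries of 162 lay within the range of 13-5A at 0 h or just above it.

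MELO3C014656.2 belongs to the same kind by its means but was uneven between libraries. In 162 it had 0.777, 0.117 and 0.203 FPKM at 0 h and 11.1, 2.85 and 2.40 FPKM at 12 h. For 13-5A the values were 1.86, 9.91 and 2.89 FPKM at 0 h and 2.28, 2.88 and 2.33 FPKM at 12 h. Replicate 1 of 162 at 12 h and replicate 2 of 13-5A at 0 h stood far above their groups. Its difference between the changes, 2.52 (SE 0.71), was among the largest of the list and was not called by limma.

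The 23 genes that parted at 12 h had differences of -0.86 to 0.91 between the varieties at 0 h. Their median member stood at 10.8 FPKM in 162 and 10.9 FPKM in 13-5A at 0 h, and at 45.2 and 13.9 FPKM at 12 h. The most abundant member, MELO3C031601.2, had 308, 287 and 315 FPKM in 162 at 0 h and 1124, 943 and 1051 FPKM at 12 h. 13-5A showed 262, 237 and 380 FPKM at 0 h and 484, 538 and 415 FPKM at 12 h. The varieties overlapped at 0 h, both increased, and 162 ended higher in every library. Its difference between the changes, 1.04 (SE 0.27), lay close to the limit of the rule. It ran from 0.84 to 1.24 over 20 other settings, and in 15 of them it was not called.

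MELO3C009630.2 moved in 162 alone by its means, from 141 ± 18.5 to 340 ± 48.4 FPKM (SD, n = 3), while 13-5A stood at 177 ± 31.3 and 163 ± 18.3 FPKM. Its libraries of 162 had 135, 127 and 162 FPKM at 0 h and 293, 389 and 337 FPKM at 12 h. Those of 13-5A had 192, 198 and 141 FPKM at 0 h and 173, 175 and 142 FPKM at 12 h. Only the 12 h libraries of 162 stood apart from the rest.

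MELO3C022018.2 showed the same shape at a lower level. It had 15.3, 19.1 and 18.1 FPKM in 162 at 0 h and 45.7, 45.2 and 65.7 FPKM at 12 h. The 3 libraries of 13-5A had 15.1, 16.4 and 16.4 FPKM at 0 h and 19.3, 19.5 and 18.8 FPKM at 12 h. In 13-5A the times did not overlap either, but the change was 0.25 (SE 0.15) against 1.51 (SE 0.15) in 162.

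MELO3C001949.2 changed in opposite directions by its means, 1.95 (SE 0.17) in 162 and -0.34 (SE 0.17) in 13-5A, and limma did not call the latter. In 162 it had 11.3, 10.7 and 10.3 FPKM at 0 h and 39.7, 38.7 and 57.3 FPKM at 12 h. Levels in 13-5A were 5.51, 4.84 and 6.98 FPKM at 0 h and 4.56, 4.53 and 3.92 FPKM at 12 h. None of the groups overlapped. The difference between varieties at 12 h was 3.09 (SE 0.17).

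MELO3C004795.2 had a wide spread. It had 24.9, 38.1 and 54.7 FPKM in 162 at 0 h and 146, 165 and 307 FPKM at 12 h. In 13-5A it had 23.1, 22.8 and 21.3 FPKM at 0 h and 20.8, 47.7 and 21.8 FPKM at 12 h. The change of 0.31 (SE 0.36) in 13-5A came from replicate 2 at 12 h, since the other libraries lay within the 0 h range or just below it. The difference between the changes, 2.04 (SE 0.51), ran from 1.72 to 2.42 over 20 other settings and was not called in 11 of them.

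MELO3C002739.2 had the largest change in 162, 3.80 (SE 0.29), and almost no transcript in 13-5A. In 162 it had 0.165, 1.56 and 0.161 FPKM at 0 h and 26.2, 21.3 and 14.5 FPKM at 12 h. The libraries of 13-5A had 0, 0 and 0.0319 FPKM at 0 h and 0, 0.189 and 0.225 FPKM at 12 h. Only 162 at 12 h, with a mean of 20.6 FPKM, was above the minimum level of 3 FPKM. The gene thus passed that limit through the group where it was high. Recovered reads in 13-5A numbered 1 over the 3 libraries at 0 h and 13 at 12 h, against 59 and 1881 in 162. Counts this low move log2(FPKM + 1) little, and the difference between the changes was 3.63 (SE 0.41). With limma voom on the reads it was 3.72 with a wider SE of 1.73 and was not called.

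Among the 5 genes higher in 162 at both times, the median member stood at 0.985 FPKM at 0 h and 2.12 FPKM at 12 h in 13-5A, and at 5.89 and 35.7 FPKM in 162. Levels in 13-5A differed widely among these 5. MELO3C006929.2 had means of 54.7 and 68.2 FPKM there, and MELO3C006430.2 had 3.49 and 6.44 FPKM, while the other 3 were under 3 FPKM at both times. MELO3C025105.2 had 7.18, 3.07 and 2.82 FPKM in 162 at 0 h and 47.4, 31.7 and 55.7 FPKM at 12 h. The sensitive variety had 1.33, 1.01 and 0.612 FPKM at 0 h and 1.23, 4.15 and 0.986 FPKM at 12 h. All libraries of 162 at 12 h lay far above the rest, and in 13-5A at 12 h replicate 2 stood apart.

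MELO3C031314.2 had the highest starting level relative to 13-5A, 1.96 (SE 0.28). It had 3.57, 8.04 and 6.06 FPKM in 162 at 0 h and 19.2, 13.2 and 24.7 FPKM at 12 h. For 13-5A the values were 0.801, 0.761 and 0.574 FPKM at 0 h and 0.811, 1.51 and 0.387 FPKM at 12 h. The varieties did not overlap at either time.

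MELO3C002492.2 shows what the pseudocount does to weakly expressed genes. It had 1.21, 1.66 and 2.75 FPKM in 162 at 0 h and 22.4, 10.5 and 14.1 FPKM at 12 h. 13-5A showed 0.110, 0.237 and 0.391 FPKM at 0 h and 1.26, 0.734 and 0.958 FPKM at 12 h. Like MELO3C002739.2, it passed the minimum level of 3 FPKM only through 162 at 12 h, where its mean was 15.7 FPKM. Mean FPKM increased 8.37-fold in 162 and 4.0-fold in 13-5A, and neither variety overlapped between times. On the log2(FPKM + 1) scale the change in 13-5A was 0.67, and with a pseudocount of 0.1 it was 1.70, outside the rule. With that pseudocount 5 of the 58 genes left the list, each because its change in 13-5A reached 1. In 4 members the mean in 13-5A was under 1 FPKM at both times.

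Among the 20 genes within 1 at both times, the median member stood at 8.33 and 21.9 FPKM in 162 and at 13.4 and 18.8 FPKM in 13-5A. MELO3C012939.2 had the smallest change in 13-5A of the members averaging 10 FPKM or more, 0.04 (SE 0.15). It had 43.0, 29.5 and 36.5 FPKM in 162 at 0 h and 91.6, 89.0 and 98.2 FPKM at 12 h. The 3 libraries of 13-5A had 65.8, 68.9 and 75.0 FPKM at 0 h and 66.8, 70.6 and 78.9 FPKM at 12 h. In 162 it went from below both groups of 13-5A to above them, without overlap.

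**Figure D4:**
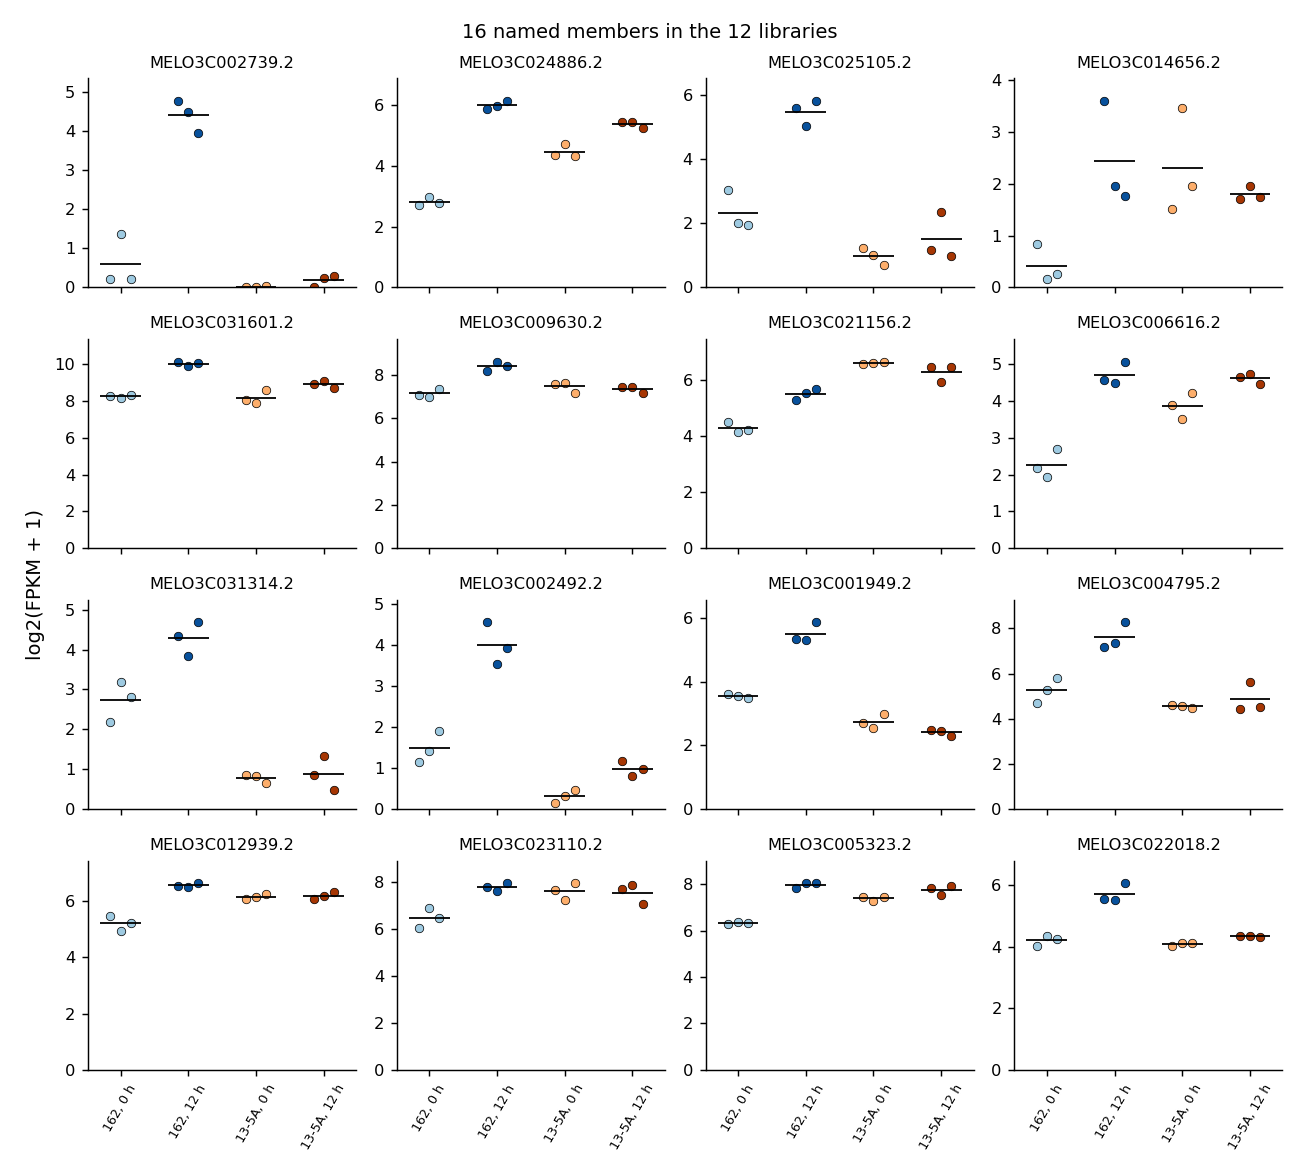
log2(FPKM + 1) of the 16 named members in the 12 libraries (points), with group means (lines); the vertical scale starts at 0 and differs between panels. In MELO3C024886.2, MELO3C006616.2 and MELO3C005323.2 the 162 libraries start below those of 13-5A, and in MELO3C025105.2, MELO3C031314.2 and MELO3C002492.2 they lie above them at both times.

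Because the rule used all libraries, the members' values cannot show how well the pattern holds in other libraries. The choice was therefore repeated with 2 of the 3 replicate numbers, and the difference between the changes was read in the number left out. Replicate numbers were not treated as pairing the samples, so each number only names 1 library per group. With number 1 left out, 89 genes were chosen, with a median difference of 1.30 where they were chosen and 0.78 in the libraries left out, against -0.13 over all genes that passed the level minimum. With number 2 left out, 140 genes were chosen, and their median fell from 1.32 to 0.17, against -0.27 over all genes. With number 3 left out, 57 genes were chosen, and the median was 1.32 and then 1.21, against -0.11. Of the chosen genes, 46 of 89, 51 of 140 and 32 of 57 were among the 58 members. The values therefore describe genes chosen by the same rule, and not the 58 members alone.

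In the libraries left out, the difference was at least 1 in 35 of 89, 29 of 140 and 33 of 57 chosen genes, that is, in 39.3%, 20.7% and 57.9%. Over all genes the shares were 4.62%, 3.12% and 6.99%. The difference was above 0 in 76.4%, 57.9% and 78.9% of the chosen genes and in 42.0%, 31.2% and 42.3% of all genes. The change in 162 was at least 1 in 64.0%, 56.4% and 61.4% of the chosen genes, against 12.7%, 8.21% and 12.8% of all. In the number 2 libraries the chosen genes also increased in 13-5A, by a median of 1.09, where those that chose them gave 0.23 and all genes gave 0.17. In number 1 and number 3 they changed there by 0.38 and 0.26. The rise in 162 thus recurred in libraries the choice did not use to a like degree each time, and the lack of a rise in 13-5A did not recur in number 2. Of the 58 members, 25 were chosen all 3 times and 1 was never chosen.

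**Figure D5:**
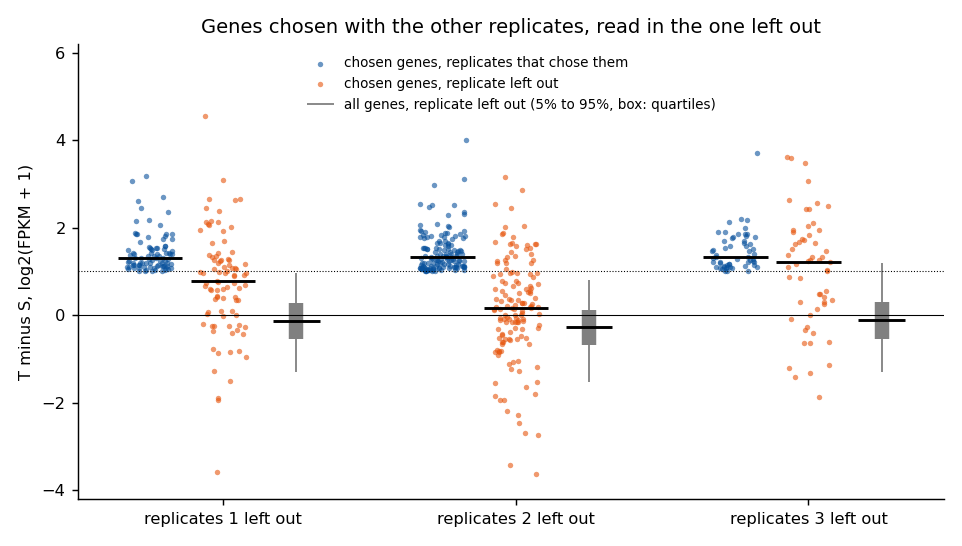
Difference between the changes (T minus S on the axis, T the change in 162 and S that in 13-5A, log2(FPKM + 1) scale) for genes chosen by the rule with 2 replicate numbers, in the libraries that chose them (blue) and in the number left out (orange), with black lines at the medians. Grey boxes (quartiles) with lines (5% to 95%) show all genes that passed the level minimum in the libraries left out, and the dotted line marks 1; the orange medians are 0.78, 0.17 and 1.21 and the grey ones -0.13, -0.27 and -0.11.

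Within groups, some libraries more often than others held the highest or the lowest level of a member. In 13-5A at 12 h, replicate 2 was the highest of its group in 27 of the 58 members, against 38.3% of the 13186 genes. Replicate 3 was the lowest there in 31, against 41.1%. In 13-5A at 0 h, replicate 3 was the highest in 35, against 47.8%, and replicate 2 the lowest in 30, against 42.4%. In 162 at 12 h, replicate 3 was the highest in 33 members, against 41.3%. The same libraries led among the genes at large, but in each of these cases the share was larger in the members. Without a single library the number of genes meeting the rule ran from 54 to 82. It was lowest without replicate 3 of 13-5A at 0 h and without replicate 3 of 13-5A at 12 h, and highest without replicate 2 of 13-5A at 12 h.

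The members spread more within groups than the genes at large. Spread is not itself a limit of the rule, but it is not independent of the choice. The limits are set on means of 3 libraries, and whether uneven libraries helped genes to pass them was not tested. Their median within-group SD of log2(FPKM + 1) was 0.36 (quartiles 0.25 and 0.47), against 0.23 (0.17 and 0.32) over the 13186 genes. Gene lengths recovered from the values had a median of 1452.5 bases (924 and 1759.75), against 1659.5 (1151 and 2299). Mean levels over the 12 libraries had medians of 16.5 and 15.5 FPKM, and the upper quartile was higher in the members (quartiles 8.09 and 70.2 FPKM, against 7.70 and 35.6 FPKM). In 16 members the mean in 162 at 12 h reached 100 FPKM, and in 9 the mean over the 12 libraries was under 5 FPKM. Fewer than 100 reads over the 3 libraries of some group were recovered for 6 members, whose levels there are the least certain.

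The limits of the rule cut through a continuum. Between 0.75 and 1 in the difference of the changes there were 37 genes that met every other limit, and between 1 and 1.25 there were 26 members. The member nearest to that limit had a difference of 1.01 and the nearest gene outside 0.996. The member with the smallest change in 162 had 1.01, and the nearest gene outside 0.999. The largest change in 13-5A was 0.94 among members and 1.05 in the next gene outside, and the smallest was -0.51 against -0.60. By level, the lowest member had a mean of 3.10 FPKM and the next gene that met the other limits 2.73 FPKM.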

How the data were processed

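The authors deposited FPKM per gene for 12 libraries, 1 column each per the file headers. Per the labels' protocols, RNA was extracted with TRIzol and sequenced as paired ends on an Illumina NovaSeq instrument. Aligner, counter, genome build and annotation: not given in the sources used here. FPKM were turned into log2(FPKM + 1), a scale that understates changes of weakly expressed genes, and the rule was applied to these values. limma 3.58.1 (R 4.3.3) with an intensity trend was fitted to 4 groups (8 residual degrees of freedom) over 15592 genes, with Benjamini-Hochberg adjustment, after being tested on simulated data.

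Each FPKM comes from whole reads divided by gene length and library total, so lengths and totals were solved for together. Lengths were found for 15591 genes. A length was accepted only if all values of the gene came out whole within 0.001 reads plus the rounding of the deposited digits. That 100% of the values of these genes are whole therefore follows from the method and is no check of it. Totals ran from 41299369 to 45355323 per library, and 1 FPKM was about 72.7 at the median length of 1645 bases. Whether these units are reads or read pairs is unresolved; they are called reads. Libraries of a group differed beyond sampling noise (chi-square per gene at least 37.7), so all were kept.

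The members, lists and tests were chosen with earlier results of these data known. Lists of named pathway and marker genes could not be matched to the identifiers and were not tested. Named members are 2 for each of 8 criteria, next in line where a gene was already taken: largest change in 162; largest difference between changes; highest level in 162 at 12 h; lowest and highest difference between varieties at 0 h; highest at 12 h; change in 13-5A nearest 0 with a mean of at least 10 FPKM; smallest spread. MELO3C006430.2, MELO3C006929.2, MELO3C017682.2, MELO3C021155.2 and MELO3C023418.2 were named after their values were seen. Alternatives were another pseudocount, other filters and scalings (TPM, median-ratio), no trend, a replicate block, limma voom and libraries left out; those for the exchanged rule and the variety calls were added after seeing the data. Python 3.11.15, numpy 2.4.6, pandas 2.3.3 and matplotlib 3.10.9 were used.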

Additional observations from a re-analysis of the deposited data

Results flagged for a closer look

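By the interaction test of limma, the changes over 12 h at 4 °C differed between the varieties in 28 of the 58 members. Over all genes, 1.04% were called in this direction. Of the 16 named members 13 were called, and naming criteria such as the largest difference and the smallest spread favour a call. The members were chosen for this difference, so the values describe them and do not test it. The differences (162 change minus 13-5A change, log2 scale) were 3.63 for MELO3C002739.2, 2.62 for MELO3C025105.2, 2.29 for MELO3C001949.2, 2.26 for MELO3C024886.2 and 2.04 for MELO3C004795.2. They were 1.84 for MELO3C002492.2, 1.71 for MELO3C006616.2, 1.53 for MELO3C021156.2, 1.36 for MELO3C009630.2 and 1.30 for MELO3C012939.2. MELO3C022018.2 and MELO3C005323.2 both had 1.26, and MELO3C031601.2 had 1.04. Without replicate 1 of 13-5A at 0 h, 13 of the 28 were called. Positive calls over all genes then went from 1.04% to 0.462%, and calls in either direction from 532 to 178. The named members not called in that setting included MELO3C025105.2, MELO3C006616.2, MELO3C009630.2 and MELO3C031601.2. Their differences then stood at 2.50, 1.69, 1.30 and 1.11.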

How the results depend on the processing

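With median-ratio scaling 94 genes met the rule and 140 the exchanged rule, 22 members were called between varieties at 0 h in place of 14 (19 lower and 3 higher in 162, against 6.34% and 6.80% of all genes, where the deposited scale gave 3.08% and 11.7%), and the members' median difference at 0 h was -0.68. A pseudocount of 0.1 and limma voom each gave 2 calls in 13-5A (14.98% and 14.8% of all genes). Leaving out libraries gave 54 to 140 genes meeting the rule (140 without all 4 libraries numbered 2, 89 without those numbered 1), 175 to 410 meeting the exchanged rule (410 without those numbered 3), 13 to 31 interaction calls among the members (13 without replicate 1 of 13-5A at 0 h), with 0.462% to 1.17% of all genes called positive, and 0 to 3 calls in 13-5A, with 11.8% to 13.5% of all genes called higher. For these changes the cause was not tested. In all, 538 alternative values were computed: 480 kept their direction and call or moved little, 15 moved further, 35 lost a call, 8 gained one and 0 reversed. Part of this tally was fixed in advance, so it does not measure robustness. Counts cannot reverse, and a median cannot change when the library left out is not in its contrast. The members were also chosen for a positive difference between the changes. The lost calls were interactions of 7 named members: 15 of MELO3C031601.2, 11 of MELO3C004795.2, 4 of MELO3C025105.2, 2 of MELO3C002492.2, and 1 each of MELO3C002739.2, MELO3C006616.2 and MELO3C009630.2. Replicate numbers were not treated as a pairing. The 18 correlations of deviations between same-numbered libraries ran from -0.31 to 0.31, and only 2 exceeded 0.1. Libraries with different numbers were not compared in this way, so these values cannot settle whether same-numbered samples share an origin. With the replicate block, 20 members had an interaction call, all among the 28, and positive calls over all genes went from 1.04% to 0.738%. Depth limits members with few reads in 13-5A.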

Other observations

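Only 2 members carry identifiers with consecutive numbers, MELO3C021155.2 and MELO3C021156.2, and they are named here after their values were seen; their genome positions were not used here. MELO3C021155.2 had 63.4, 46.2 and 55.1 FPKM in 162 at 0 h and 280, 301 and 262 FPKM at 12 h. In 13-5A it had 54.9, 50.6 and 44.7 FPKM at 0 h and 54.9, 103 and 66.1 FPKM at 12 h. The varieties began alike in this gene and parted at 12 h, whereas in MELO3C021156.2 162 began below 13-5A (-2.32) and remained below it.

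A single member, MELO3C023418.2, had libraries of 162 that overlapped between the times: 17.5, 125 and 22.3 FPKM at 0 h and 184, 142 and 118 FPKM at 12 h. Replicate 2 at 0 h stood apart there.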
